A study of Mus musculus with 12 samples.

Results

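Transcripts of 40 genes of insulin, insulin-like growth factor (IGF), mTOR and FoxO signalling were examined in the cerebellar cortex of mice on 3 diets. The 40 genes were listed by symbol from their place in the pathway, and all 40 were found among the 54752 genes of the deposited count table. This list and the further gene lists below were drawn up with earlier results of these data known. Their shares of called genes, set beside those of all genes, are therefore descriptions and not tests of an independent set. They comprise 2 ligands, 6 IGF binding proteins, 2 receptors, 2 receptor adaptors, 7 kinases and subunits from PI3 kinase to AKT, 4 FoxO transcription factors, 6 genes of mTOR, its complexes and their targets, 8 genes that act upstream of mTOR complex 1, and 3 AMPK subunits.

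All mice were male wild-type F1 hybrids of C57BL6J and FVB, 12 weeks old, and each diet had 4 mice with 1 library each. AL mice ate freely, DR (dietary restriction) mice received a reduced daily portion, and KD mice were on a ketogenic diet, whose composition and duration are not given in the sources used here. By the methods of the study, the portion was given shortly before the lights went off. AL and DR mice were both killed early in the dark period, over a window of hours, the DR mice without having received their last meal. The paper reports that core clock transcripts changed over that window, and its methods give no time for KD mice. The time of killing did not enter the fits below. The AL and DR mice had been picked from larger groups for the quality of their RNA, and the tissue was a piece of cerebellar cortex without the deep nuclei.

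Insulin and IGFs bind receptor tyrosine kinases, which act through IRS adaptors on PI3 kinase and AKT. AKT keeps FoxO transcription factors out of the nucleus and, by inhibiting the TSC complex, releases Rheb to activate mTOR complex 1. When nutrients or growth factors are scarce FoxO factors become active and mTOR complex 1 is restrained, also by AMPK, by sestrins and by the stress protein encoded by Ddit4. Much of this control acts on protein modification and location, which transcript counts do not measure.

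Total counts ranged from 31712084 to 40798644 per library. All 13 lists of cell type markers were detected, and no marker was at 0 in all libraries. Summed markers of Purkinje cells (6096 to 7635 counts per 1000000 (CPM)) and granule cells (6391 to 6853 CPM) were high, and those of choroid plexus (19.9 to 28.2 CPM) and of cerebellar nuclei and brain stem (42.3 to 51.6 CPM) were low. In bulk tissue, fewer cells of a type, less RNA per cell and a change in single marker genes cannot be told apart from such sums.

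Among the 40 genes, levels per kilobase of exon on AL spanned 0.0803 CPM per kb (Foxo6) to 60.3 CPM per kb (Igfbp5). After Igfbp5 came Ddit4 (39.6 ± 9.97 CPM per kb), Foxo3 (32.8 ± 4.14), Akt1 (28.2), Pik3r2 (23.4) and Sesn1 (20.9 ± 1.62; SD, n = 4), and the spreads of Ddit4 and Foxo3 overlapped. On AL 17 genes exceeded 10 CPM per kb, 17 lay between 1 and 10, and 6 (Igf1, Igf2, Igfbp4, Foxo6, Ddit4l and Eif4ebp1) lay below 1, with the same split of counts on DR and on KD. The median coefficient of variation between the 4 mice of a diet was 6.54% on AL, 7.22% on DR and 4.86% on KD.

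**Figure D1:**
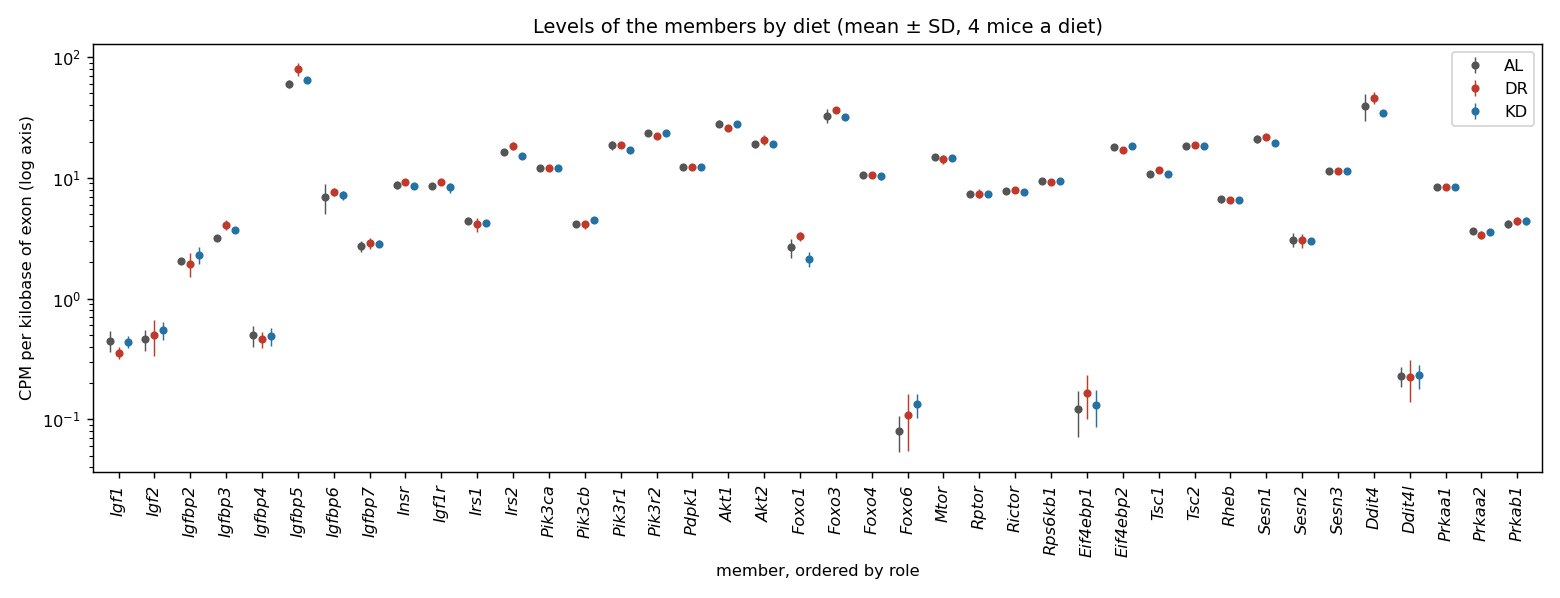
Level of each of the 40 genes in each diet, as CPM per kilobase of exon on a log axis, with genes ordered by role; points are means and bars SDs over 4 mice per diet. On AL Igfbp5 stands highest at 60.3 CPM per kb and Foxo6 lowest at 0.0803 CPM per kb, and the diets lie close together beside this range.

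The diets were compared in pairs with edgeR's quasi-likelihood test on the counts, each pair on its own 8 libraries, with Benjamini-Hochberg adjustment over all genes tested. A gene was called at an adjusted p under 0.05. Every library entered more than 1 comparison, so the comparisons are not independent of each other.

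On DR against AL, 2 of the 39 genes tested were called, Igfbp5 and Igfbp3, both higher on DR. That is 5.13%, beside 3.06% of all 19052 genes tested, of which 1.32% were called higher and 1.74% lower. An unadjusted p under 0.05 was reached by 8 of the 39, beside 18% of all genes. Without DR mouse 3 the call of Igfbp5 remained, and the count over all genes fell from 583 to 235 (1.22%). Foxo6 did not pass the filter on low counts in that comparison. On KD against AL none of the 40 genes was called, as 0% of all 19036 genes were. The unadjusted p was under 0.05 for 4 of the 40, beside 4.87% of all genes, and the smallest adjusted p among the 40 was 0.981 in edgeR's test. DESeq2 called 10 genes of the whole table on KD against AL, none of them among the 40. Without the filter on low counts edgeR called 118 genes of the whole table there (0.335%), 1 of them among the 40 (Foxo1, lower on KD). It then called 1258 genes on DR against AL (3.57%), 5 of them among the 40 (Igfbp5, Igfbp3, Foxo1, Irs2 and Ddit4, all higher on DR).

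On KD against DR, 6 of the 40 genes were called, which is 15% beside 4.94% of all 19087 genes tested. All 6 were lower on KD: Foxo1, Foxo3, Irs2, Igfbp5, Ddit4 and Sesn1. Without DR mouse 3 or KD mouse 3 the count fell to 3 (Foxo1, Irs2 and Ddit4), and the count over all genes fell from 942 to 520 (2.68%) and 467 (2.41%). The unadjusted p was under 0.05 for 12 of the 40, beside 18.7% of all genes. Among all genes, 2.51% were called lower and 2.43% higher on KD than on DR. With scaling by library size alone, the share of called genes that were lower on KD moved from 50.8% to 62.1% over the whole table, and on DR against AL the lower share moved from 56.8% to 43.0%. All 6 of these calls and both calls on DR against AL held under that scaling. It could hardly remove them, since it moved all genes in their direction. The median log2 fold change over all genes became -0.022 on KD against DR and 0.025 on DR against AL.

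The median log2 fold change of the 40 genes stayed near 0. It was 0.011 on DR against AL, -0.007 on KD against AL and -0.01 on KD against DR, beside 0.004, 0 and -0.002 over all genes tested. Levels of all 4 mice of 1 diet lay outside the range of the other for 3 of 39 genes on DR against AL (Igfbp3, Igfbp5 and Tsc1, beside 10.9% of all genes). The same held for 3 of 40 on KD against AL (Igfbp3, Irs2 and Pik3r1, beside 2.95%) and for 8 of 40 on KD against DR (beside 11.8%), where Akt1 lay higher on KD and Irs2, Pik3r1, Foxo1, Foxo3, Tsc1, Sesn1 and Ddit4 lower.

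Summed levels of some cell markers moved with diet. In a two-sided exact permutation test over 70 divisions of 8 libraries, whose smallest p is 0.0286, DR mice had less summed signal than AL mice for 6 of the 13 lists, each at that p. These were Purkinje cells (6096 to 6996 against 7065 to 7635 CPM), Bergmann glia and astrocytes (1631 to 1688 against 1828 to 1972), oligodendrocyte precursors (54.7 to 64.2 against 65.0 to 74.1), microglia (56.8 to 60.7 against 60.8 to 64.7), endothelium (184 to 186 against 189 to 213) and mural cells (134 to 147 against 152 to 159). Between DR and KD, sums for Purkinje cells, Bergmann glia and astrocytes, and endothelium were higher on KD at the same p, and on KD against AL those for mural cells and erythrocytes were lower. With the mean log2 CPM of each list in place of the sum, 2 of the 6 lists, Bergmann glia and astrocytes and mural cells, differed at that p on DR against AL. A sum can rest on few abundant genes, and markers of 1 list did not all move together. In the endothelial list Itm2a averaged 15.96 CPM on DR and 25.45 CPM on AL, and Pecam1 17.24 and 14.28 CPM. In the Purkinje list Itpr1 averaged 3766 CPM on DR and 4390 CPM on AL, and Pvalb 571.3 and 545.9 CPM. The permutation p-values were not adjusted for the number of lists. The part of these shifts in the results for the 40 genes was not tested.

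Transcripts of the ligands were scarce. Igf1 ranged from 3.19 to 5.42 CPM over the 12 mice and Igf2 from 1.53 to 3.74 CPM, and neither was called in any comparison (edgeR's adjusted p of 0.176 or more). Of the Igf2 exon bases, 64.5% overlap an annotated neighbouring gene, so its reads are uncertain.

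The IGF binding proteins carry IGFs outside cells and alter their access to the receptor. Igfbp5, the highest of the 40 genes per kilobase, was at 321.4, 365, 374 and 387 CPM in the 4 AL mice. It was at 401, 479, 533 and 495 CPM in the DR mice and at 360.2, 416, 379 and 401 CPM in the KD mice. All 4 DR mice lay above all 4 AL mice, whereas KD mouse 2 lay above DR mouse 1. Igfbp5 was 31.8% higher on DR than on AL (log2 fold change 0.40 ± 0.08, SE, with edgeR's adjusted p at 0.0126). It was lower on KD than on DR (log2 fold change -0.29 ± 0.07, adjusted p = 0.0241). The call on DR against AL held without any single mouse. That on KD against DR was lost in edgeR's test without DR mouse 3 (adjusted p = 0.0808), DR mouse 4 (0.0615), KD mouse 1 (0.0916) or KD mouse 3 (0.0829). The log2 fold change of 0.11 ± 0.06 on KD against AL did not pass.

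Igfbp3, at 3.18 CPM per kb on AL, was at 10.8, 9.83, 9.35 and 9.82 CPM on AL and at 13.4, 10.97, 13.6 and 12.8 CPM on DR. KD mice had 10.9, 11.4, 11.4 and 12.4 CPM. The AL mice lay below all DR mice and all KD mice. Igfbp3 was 27.6% higher on DR than on AL (log2 fold change 0.35 ± 0.09, edgeR's adjusted p = 0.0391). This call held only when DR mouse 2 was left out (adjusted p = 0.0178) and was lost without any other single mouse of the 8, with adjusted p of 0.0512 to 0.118. On KD against AL the log2 fold change was 0.21 ± 0.07, with an unadjusted p of 0.0115 and an adjusted p of 0.981 in edgeR's test.

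The other binding proteins were not called in any comparison. Igfbp6 ranged from 5.16 to 10.2 CPM over the 12 mice, Igfbp2 from 2.91 to 5.22 CPM, Igfbp7 from 2.92 to 4.02 CPM and Igfbp4 from 1.66 to 2.78 CPM. Igfbp2 and Igfbp5 lie 5.46 kb apart on chromosome 1, and the log2 fold change of Igfbp2 on DR against AL was -0.07 ± 0.15.

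The promoters of the called binding proteins are shown for the sequence before their starts, as the 250 bases before the RefSeq start, on the strand of the gene, from GRCm38.p6. Igfbp3 lies at chr11:7206086-7213923 and its window at chr11:7213924-7214173, and Igfbp5 lies at chr1:72857932-72874884 and its window at chr1:72874866-72875115, both genes on the minus strand. The last bases of the Igfbp5 window, 72874866 to 72874884, lie inside the gene as annotated in the counts. The window of Igfbp3 is 73.2% G and C, that of Igfbp5 58.8%, and neither holds the FoxO motif GTAAACA or the E-box CACGTG on either strand.
Igfbp3: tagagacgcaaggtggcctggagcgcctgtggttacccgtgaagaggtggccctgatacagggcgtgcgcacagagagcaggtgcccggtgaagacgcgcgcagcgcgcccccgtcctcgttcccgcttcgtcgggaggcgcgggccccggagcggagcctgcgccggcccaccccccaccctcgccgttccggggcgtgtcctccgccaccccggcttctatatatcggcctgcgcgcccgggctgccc
Igfbp5: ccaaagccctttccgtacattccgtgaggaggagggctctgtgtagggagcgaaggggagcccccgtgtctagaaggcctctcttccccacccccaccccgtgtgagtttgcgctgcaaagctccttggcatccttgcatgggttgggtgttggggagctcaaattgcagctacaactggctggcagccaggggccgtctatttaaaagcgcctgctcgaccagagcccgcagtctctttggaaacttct

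The receptors were not called. Insr, the insulin receptor, averaged 120.1 ± 8.24, 128 ± 4.98 and 118 ± 3.15 CPM (SD, n = 4) on AL, DR and KD. Igf1r, the IGF1 receptor, averaged 144 ± 6.68, 156 ± 8.21 and 139.9 ± 13.6 CPM. Between DR and KD the log2 fold changes, KD minus DR, were -0.11 ± 0.04 for Insr and -0.16 ± 0.06 for Igf1r, and edgeR's adjusted p was 0.164 and 0.159.

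Of the receptor adaptors, Irs2 was called and Irs1, at 30.6 to 42.8 CPM over the 12 mice, was not. Another gene overlaps 30.9% of the exon bases of Irs1, so its reads are uncertain. Irs2 was at 102.7, 109, 99.7 and 103 CPM in the AL mice. The DR mice had 106, 116, 127 and 119 CPM and the KD mice 94.4, 98.4, 98.8 and 93.7 CPM. The KD mice lay below every AL and every DR mouse, and DR mouse 1 lay within the AL range. Relative to DR, Irs2 decreased by 17.7% on KD (log2 fold change -0.28 ± 0.05, edgeR's adjusted p = 0.00445), and the call held without any single mouse. On DR against AL its log2 fold change was 0.17 ± 0.05 (adjusted p = 0.0958), which passed without DR mouse 1 (adjusted p = 0.0345) and in a fit of all 12 libraries (adjusted p = 0.0492). That difference did not pass without any other single mouse (edgeR's adjusted p of up to 0.243). Against AL on KD the log2 fold change of Irs2 was -0.10 ± 0.04 (adjusted p = 0.981).

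From PI3 kinase to AKT no gene was called. Pik3ca and Pik3cb encode catalytic subunits of PI3 kinase, Pik3r1 and Pik3r2 regulatory subunits, Pdpk1 the kinase that activates AKT, and Akt1 and Akt2 AKT itself. Over the 12 mice Pik3ca ranged from 105 to 115 CPM, Pik3cb from 26.6 to 33.98, Pik3r1 from 168 to 209, Pik3r2 from 85.1 to 102, Pdpk1 from 128 to 144 and Akt2 from 125 to 161. Their log2 fold changes and those of Akt1 lay between -0.12 and 0.13 on DR against AL, between -0.12 and 0.08 on KD against AL, and between -0.12 and 0.11 on KD against DR. Akt1, at 28.2 CPM per kb on AL, was at 109.5, 110, 126 and 118 CPM on AL and at 103, 105, 107 and 109.5 CPM on DR, with a log2 fold change of -0.12 ± 0.05 (edgeR's adjusted p = 0.209). The KD mice, at 111 to 119 CPM, lay above the DR mice. Pik3r1 was at 168 to 176 CPM on KD, below the 178 to 209 CPM on AL (log2 fold change -0.12 ± 0.05, edgeR's adjusted p = 0.981).

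Foxo1, a FoxO transcription factor, had the greatest called change among the 40 genes. A gene on the opposite strand overlaps 7.78% of its exon bases. It was at 20.2, 26.0, 27.1 and 18.9 CPM in the AL mice, at 28.4, 26.3, 31.9 and 27.9 CPM in the DR mice and at 20.8, 16.3, 16.3 and 20.6 CPM in the KD mice. The DR and KD mice did not overlap. AL mice 2 and 3 lay close to the DR mice, and AL mice 1 and 4 lay within the KD range. Relative to DR, Foxo1 decreased by 35.4% on KD (log2 fold change -0.63 ± 0.09, edgeR's adjusted p = 0.000611), and the call held without any single mouse, with adjusted p of 0.000598 to 0.0037. Against AL the log2 fold changes were 0.31 ± 0.10 on DR (adjusted p = 0.119) and -0.32 ± 0.12 on KD (adjusted p = 0.981). Without AL mouse 3, the difference of DR from AL passed (adjusted p = 0.0353). Without any other single mouse that difference did not pass (edgeR's adjusted p of up to 0.287).

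Foxo3, the highest of the FoxO genes per kilobase, was at 226, 271, 280.1 and 218 CPM on AL. It was at 261, 279.9, 280.1 and 282 CPM on DR and at 246, 248, 226 and 246 CPM on KD. All KD mice lay below all DR mice, and the AL mice spanned both groups. Foxo3 was lower on KD than on DR (log2 fold change -0.19 ± 0.04, edgeR's adjusted p = 0.0198). The call was lost without DR mouse 3 (adjusted p = 0.061), without KD mouse 3 (0.0782) and in the fit of all 12 libraries (0.103). Foxo4, whose product is a FoxO factor too, ranged from 34.3 to 39.4 CPM and was not called. Foxo6 ranged from 0.102 to 0.439 CPM and was not called where it was tested.

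The promoters of Irs2 and Foxo1 are shown because both genes were lower on KD than on DR under every single-mouse omission. Ddit4 met this too and is not printed, since its window runs into the annotated first exon, from 59951771 to 59951834 on chromosome 10. The printed Igfbp5 window does so over a shorter stretch, and the last base of the Foxo1 window is the first of its gene. Irs2 lies at chr8:10984681-11008458 on the minus strand, with its window at chr8:11008930-11009179. Foxo1 lies at chr3:52268336-52353221 on the plus strand, with its window at chr3:52268087-52268336. Capitals mark an E-box in the Irs2 window, 44 to 39 bases before the RefSeq start. That start lies upstream of the gene as annotated in the counts, which begins at 11008458, so the E-box is farther from the annotated gene.
Irs2: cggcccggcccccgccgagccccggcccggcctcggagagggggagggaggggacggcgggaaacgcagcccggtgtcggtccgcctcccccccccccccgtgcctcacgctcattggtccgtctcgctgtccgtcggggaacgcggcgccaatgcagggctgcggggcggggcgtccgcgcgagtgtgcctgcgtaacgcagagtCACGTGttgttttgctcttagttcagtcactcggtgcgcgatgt
Foxo1: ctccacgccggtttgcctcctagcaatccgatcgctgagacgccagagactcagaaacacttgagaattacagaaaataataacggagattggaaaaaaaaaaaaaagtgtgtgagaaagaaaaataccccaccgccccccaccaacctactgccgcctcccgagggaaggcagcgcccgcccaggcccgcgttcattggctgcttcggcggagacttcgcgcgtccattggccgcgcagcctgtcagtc

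Of the 40 genes, 36 were in the RefSeq promoter table, with 47 windows. The E-box CACGTG stood in windows of 4 of these genes (Igfbp2, Irs1, Irs2 and Rheb), beside 6.86% of all 27025 genes of the table, and in 4 of the 47 windows, beside 6.02% of all 32851. The FoxO motif GTAAACA, searched on both strands, stood in 1 member window, that of Akt1, beside 3.17% of all windows. Such a match describes letters and does not show a binding site. The windows of the 40 genes had a median of 65.6% G and C, beside 52.4% for all windows.

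**Figure D2:**
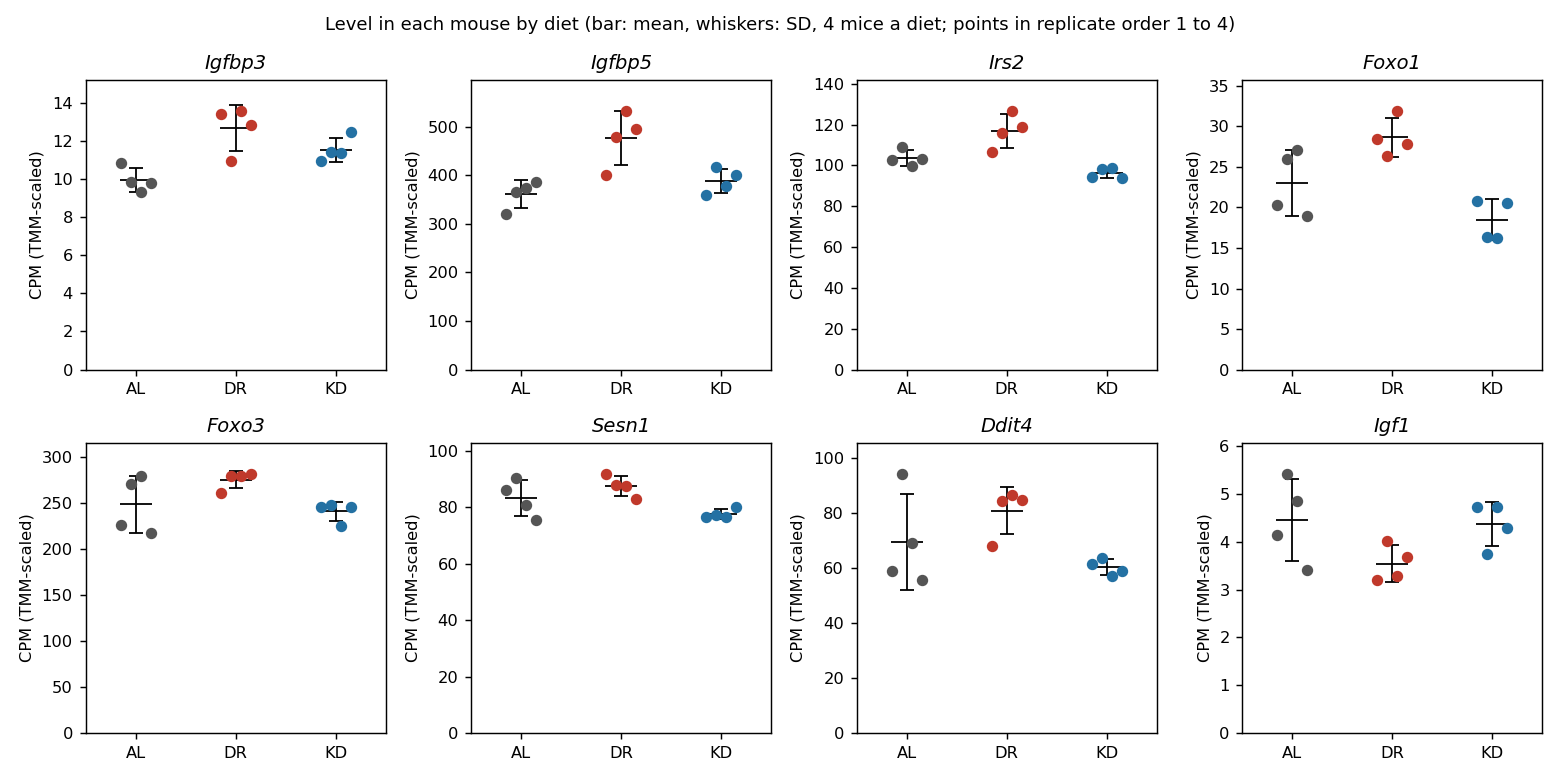
CPM of single mice (points) with the group mean (bar) and SD (whiskers) on AL, DR and KD for the 7 of the 40 genes called in any comparison and for Igf1, with each axis starting at 0. For Foxo1, Irs2, Foxo3, Sesn1 and Ddit4, all 4 KD mice lie below all 4 DR mice, and for Igfbp5 all 4 DR mice lie above all 4 AL mice.

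No gene of mTOR, its complexes and their targets was called. Mtor encodes the kinase, Rptor and Rictor the defining subunits of complexes 1 and 2, and Rps6kb1, Eif4ebp1 and Eif4ebp2 targets of complex 1. None of these 6 genes reached an unadjusted p of 0.05 in any comparison. Rptor ranged from 89.2 to 109 CPM over the 12 mice, Rictor from 125 to 139, Rps6kb1 from 77.7 to 86.3, Eif4ebp2 from 92.3 to 113 and Eif4ebp1 from 0.127 to 0.561. Mtor ranged from 129 to 155 CPM over the 12 mice, with log2 fold changes of -0.06 ± 0.06, -0.01 ± 0.04 and 0.05 ± 0.05 on DR against AL, KD against AL and KD against DR.

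Upstream of mTOR complex 1, Ddit4 and Sesn1 were called on KD against DR. Ddit4, which encodes a stress-induced inhibitor of mTOR complex 1, was at 58.8, 94.3, 69.0 and 55.7 CPM on AL and at 68.0, 84.6, 86.6 and 84.8 CPM on DR. The KD mice had 61.6, 63.8, 57.2 and 59.0 CPM. The AL mice were the most spread (69.4 ± 17.5 CPM, SD, n = 4), with AL mouse 2 above every other mouse, and all KD mice lay below all DR mice. Relative to DR, Ddit4 decreased by 25.4% on KD (log2 fold change -0.42 ± 0.07, edgeR's adjusted p = 0.0016), and the call held without any single mouse. On DR against AL its log2 fold change was 0.22 ± 0.13 (adjusted p = 0.397), which passed without AL mouse 2 (adjusted p = 0.0364). That difference did not pass without any other single mouse (edgeR's adjusted p of up to 0.701).

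Sesn1, a sestrin, which restrains mTOR complex 1, was at 86.2, 90.4, 80.9 and 75.6 CPM on AL and at 91.8, 88.0, 87.5 and 83.0 CPM on DR. The KD mice had 76.5, 77.3, 76.5 and 80.3 CPM, all below the DR mice. Sesn1 was lower on KD than on DR (log2 fold change -0.17 ± 0.04, edgeR's adjusted p = 0.0292). This call held only without DR mouse 4 (adjusted p = 0.0205) or KD mouse 4 (0.0469). Without any other single mouse it had adjusted p of 0.051 to 0.0964, and in the fit of all 12 libraries 0.0553. Sesn1 and Foxo3 lie 273 kb apart on chromosome 10, and genes between them were not examined.

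Tsc1, a subunit of the TSC complex that holds Rheb in check, was at 127, 130.4, 129.6 and 122 CPM on AL, at 134, 138, 146 and 137 CPM on DR and at 129, 127, 126 and 122 CPM on KD. All 4 DR mice lay above all AL and all KD mice. Its difference did not pass in edgeR's test on KD against DR (log2 fold change -0.14 ± 0.04, adjusted p = 0.0658) or on DR against AL (0.13 ± 0.04, adjusted p = 0.136). Between DR and KD it passed in DESeq2 (adjusted p = 0.0313), with library size alone (0.0342), with a stricter filter (0.0438), in the fit of all 12 libraries (0.0476) and without DR mouse 1 (0.0488). In edgeR's test it did not pass with RLE normalization (adjusted p = 0.0785) or without the filter on low counts (0.0934). Nor did it pass there without any other single mouse (0.088 to 0.194). The others of this set were not called in any comparison. Tsc2, the partner of Tsc1, ranged from 166.5 to 193 CPM, the GTPase gene Rheb from 47.3 to 55.4, the sestrin genes Sesn2 from 9.47 to 12.7 and Sesn3 from 165 to 186, and Ddit4l, a relative of Ddit4, from 0.357 to 0.970.

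AMPK, the kinase that senses low cellular energy, was measured by its catalytic subunits Prkaa1 and Prkaa2 and its regulatory subunit Prkab1. Prkaa1 ranged from 36.8 to 41.0 CPM, Prkaa2 from 25.2 to 30.8 and Prkab1 from 11.6 to 14.4. None was called, and their log2 fold changes lay between -0.10 and 0.09 in all comparisons. Some members averaged above 10 CPM in the first-named diet of a comparison and were not called. Of these, 26 of 29 on DR against AL, 28 of 31 on KD against AL and 24 of 25 on KD against DR had a log2 fold change within 0.15 of 0. Leaving out called genes favours small changes, so these counts are descriptions only. Over all genes tested, the quartiles of the log2 fold change were -0.09 and 0.112, -0.056 and 0.064, and -0.108 and 0.09 in these comparisons.

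Further genes of the pathway were listed by symbol, 97 in all, of which 93 were tested in each comparison. On DR against AL none was called in edgeR's test, whose smallest adjusted p was 0.0644, and 20 of the 93 had an unadjusted p under 0.05, beside 18% of all genes. On KD against AL none was called and 7 of the 93 had an unadjusted p under 0.05, beside 4.87% of all genes. DESeq2 called 3 of the 93 on DR against AL, beside 5.31% of all genes, and none on KD against AL, beside 0.0525%. On KD against DR 10 were called (10.8%, beside 4.94% of all genes), 7 lower and 3 higher on KD, and the median log2 fold change of the list was -0.024.

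The greatest decreases were in Sgk1 and Sgk3, kinases related to AKT. Sgk1 averaged 80.6 ± 15.7, 102.2 ± 11.8 and 65.9 ± 5.77 CPM (SD, n = 4) on AL, DR and KD, a log2 fold change of -0.63 ± 0.07 on KD against DR (edgeR's adjusted p = 0.00021). Sgk3 averaged 13.7 ± 3.01 CPM on DR and 9.08 ± 0.25 CPM on KD (log2 fold change -0.59 ± 0.12, adjusted p = 0.00753). Pik3ip1, an inhibitor of PI3 kinase, was lower too (-0.42 ± 0.06, adjusted p = 0.000461), and these 3 calls held without any single mouse. Acacb, an acetyl-CoA carboxylase that AMPK phosphorylates, lay at -0.47 ± 0.13 (adjusted p = 0.0408), and its call held only without DR mouse 2, reaching adjusted p of up to 0.128 without any of the other 7.

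Of the 3 genes that were higher on KD than on DR, Grb14, an inhibitor of the insulin receptor, was raised most (log2 fold change 0.45 ± 0.11, edgeR's adjusted p = 0.0219). The call was lost without DR mouse 1 or 3 or KD mouse 3 or 4 (adjusted p of up to 0.073). Pik3c2b, a class II PI3 kinase, was at 0.26 ± 0.07 (adjusted p = 0.0362), lost without DR mouse 1 or any 1 KD mouse (up to 0.111). Rragd, a Rag GTPase that recruits mTOR complex 1 to lysosomes, was at 0.15 ± 0.04 (adjusted p = 0.0438) and held only without DR mouse 1 or KD mouse 2 (otherwise up to 0.139).

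The list of FoxO targets held 39 genes that are described as targets of FoxO factors. Several of them are also known targets of other regulators, such as PPAR factors for Angptl4 and Pdk4 and the glucocorticoid receptor for Klf15, so the list does not measure FoxO activity alone. On DR against AL 3 of the 36 tested were called (8.33%, beside 3.06% of all genes), all higher on DR, and 12 of the 36 had an unadjusted p under 0.05, beside 18% of all genes. On KD against AL none of 37 was called in edgeR's test and 8 had an unadjusted p under 0.05, beside 4.87% of all genes. DESeq2 called 1 there, beside 0.0525% of all genes. On KD against DR 11 of 36 were called (30.6%, beside 4.94% of all genes), 10 lower and 1 higher on KD. The median log2 fold change of the list was 0.064 on DR against AL and -0.082 on KD against DR.

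Angptl4, an inhibitor of lipoprotein lipase, averaged 2.20 ± 0.625, 5.94 ± 0.451 and 2.65 ± 0.469 CPM (SD, n = 4) on AL, DR and KD, and the DR mice lay above all others. Its log2 fold change was 1.43 ± 0.16 on DR against AL (edgeR's adjusted p = 0.000506) and -1.17 ± 0.13 on KD against DR (adjusted p = 0.000135). Cdkn1a, which encodes the cell cycle inhibitor p21, averaged 36.2 ± 7.08, 51.1 ± 5.5 and 26.2 ± 3.2 CPM. It was higher on DR than on AL (0.50 ± 0.11, adjusted p = 0.0295) and lower on KD than on DR (-0.97 ± 0.08, adjusted p = 1.98e-05). Bcl6, a transcriptional repressor, was higher on DR than on AL (0.45 ± 0.10, adjusted p = 0.0234) and lower on KD than on DR (-0.62 ± 0.08, adjusted p = 0.000405).

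The calls of Cdkn1a and Bcl6 on DR against AL were lost without some single mice. Cdkn1a lost its call without AL mouse 1 or DR mouse 1, 3 or 4 (adjusted p of up to 0.0854 in edgeR's test), and Bcl6 without AL mouse 1 or 4 or DR mouse 3 or 4 (up to 0.0844). Their calls on KD against DR, and both calls of Angptl4, held without any single mouse. Txnip, which restrains glucose uptake, was lower on KD than on DR (-1.16 ± 0.15, adjusted p = 0.000448), and 19.4% of its exon bases overlap another gene, so its reads are uncertain. Tnfsf10, a death ligand of the TNF family, was the single gene of the list that was higher on KD than on DR (1.21 ± 0.18, adjusted p = 0.0012), at a low level of 0.775 ± 0.0676 CPM on DR and 1.80 ± 0.211 CPM on KD.

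The list of ATF4 targets held 44 symbols, of which 36 were found and 33 tested. The symbols not found were newer names of transfer RNA synthetase genes. All but Mars1 were already in the list, and found, under their older names. Mars1 was listed by its newer name only and was missed, although the count table holds it as Mars. ATF4 is a transcription factor that responds to amino acid shortage and lies downstream of mTOR complex 1. On DR against AL 1 gene was called, the transcription factor gene Ddit3, lower on DR (log2 fold change -0.27 ± 0.06, edgeR's adjusted p = 0.0246, 3.03% of the list beside 3.06% of all genes). Its call was lost without AL mouse 1 or 2 or DR mouse 3 or 4 (up to 0.0869). On KD against AL none was called and 3 had an unadjusted p under 0.05, beside 4.87% of all genes. Between DR and KD 2 genes were called (6.06%, beside 4.94% of all genes): Psph, an enzyme of serine synthesis, was lower on KD (-0.34 ± 0.08, adjusted p = 0.0216), and Vldlr, a lipoprotein receptor, higher (0.16 ± 0.04, adjusted p = 0.0324). Psph lost its call without DR mouse 1 or 3 or KD mouse 3 or 4 (up to 0.079), and Vldlr kept it only without DR mouse 1 or 4 (otherwise up to 0.115). Overlap with other genes covers 10.9% of the exon bases of Ddit3 and 10.4% of those of Psph.

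**Figure D3:**
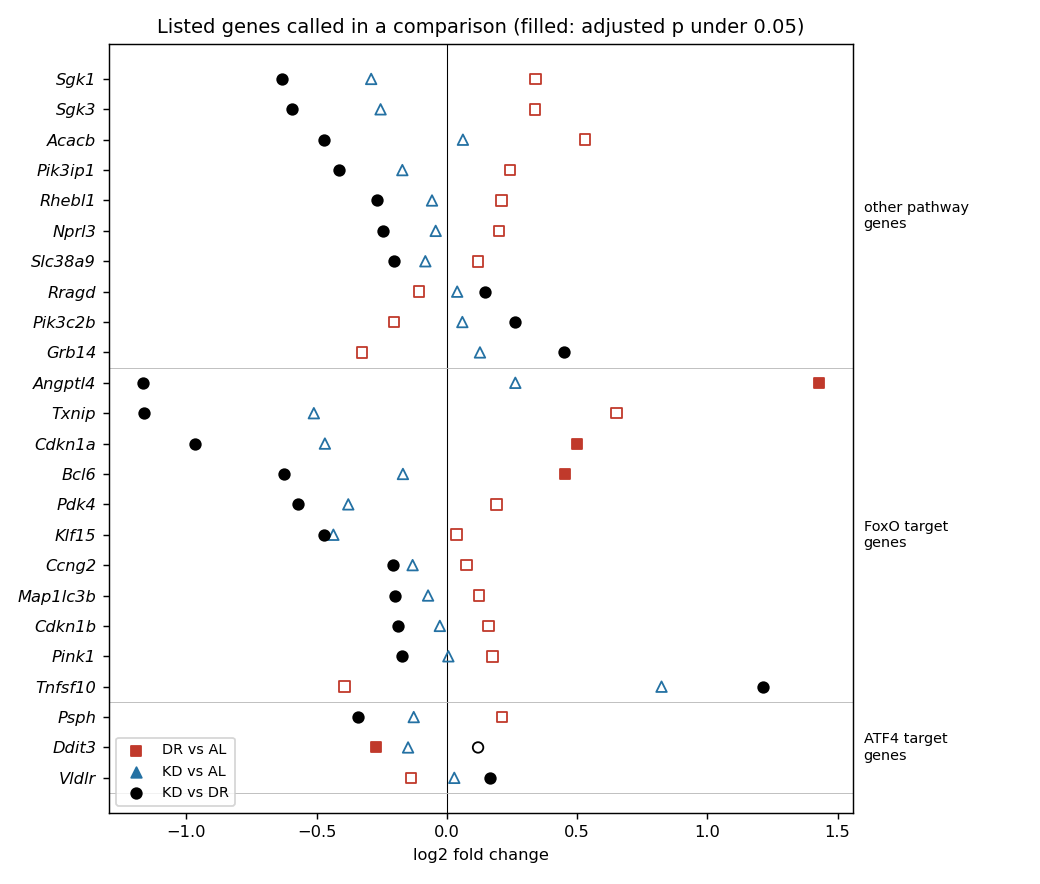
Log2 fold change of the genes of the 3 further lists that were called in at least 1 comparison, with a square for DR against AL, a triangle for KD against AL and a circle for KD against DR, filled where called. Angptl4 stands farthest from 0 on DR against AL (1.43) and Tnfsf10 is the farthest of the genes higher on KD than on DR (1.21).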

How the data were processed

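Poly(A) RNA of cerebellar cortex from 12 mice, 4 per diet, was sequenced from TruSeq libraries. The authors trimmed reads with Trimmomatic 0.39, mapped them to GRCm38.p6 with STAR 2.7.0f and assigned them to genes with featureCounts of Subread 1.6.4, and they deposited the counts of 54752 genes without normalization. The library kit does not keep strand, and the strand setting of the counting is not given in the sources used here. Symbols were matched for 54723 genes from a later annotation.

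Low genes were removed with filterByExpr at its defaults (a minimum count of 10, and 15 in total), TMM factors were applied, and edgeR 4.0.16 under R 4.3.3 gave quasi-likelihood tests. P-values were adjusted by Benjamini-Hochberg over all genes tested. CPM were computed with TMM-scaled library sizes over all 12 libraries. The 8 libraries of a pair of diets were fitted without covariates, and a fold change is reported with its SE. edgeR's test gives no SE, so it was derived as the absolute log2 fold change divided by the square root of the F statistic. Precision depends on the totals of 31712084 to 40798644 counts per library and on the spread between the mice of a diet. Nothing in the labels ties mice to cages or batches. Replicate numbers only name mice.

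In counts simulated from these libraries the script recovered 66.7% of genes changed by 0.5 on the log2 scale and 95.5% of those changed by 1 on DR against AL, 83.7% and 96.9% on KD against AL, and 77.6% and 95.1% on KD against DR. False calls numbered 5 on DR against AL, beside 60 and 105 genes recovered at the changes of 0.5 and 1. There were 18 on KD against AL, beside 87 and 93 recovered, and 17 on KD against DR, beside 76 and 97. Only genes with a mean above 1 CPM were changed, and changes under 0.5 were not simulated. Of the called members only Foxo1, on KD against DR, changed by more than 0.5, so these shares do not give the power for the others. The members and lists were chosen with earlier results of these data known. All 40 members were named, those under 1 CPM per kb in every diet by their range. Of the other lists, called genes were named, and where over 8 were called the 4 with the largest change in each direction. Pdk4 and Klf15 were named for background alone. Alternatives were another normalization (RLE of edgeR, library size alone), DESeq2 1.42.0, no filter, a filter at a mean of 10 CPM, a fit of all 12 libraries, and leaving out each mouse. Genes whose exons overlap another gene over 10% of their bases were reported as uncertain.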

Additional observations from a re-analysis of the deposited data

Results flagged for a closer look

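Within 120 groups of 4 mice (40 genes on 3 diets), 7 held a mouse that stood apart from the other 3 by Dixon's criterion, where chance gives about 1 in 20. Foxo3 gave 2 of them: DR mouse 1 had 261.2 CPM against 279.9 to 281.6 in the others, and KD mouse 3 had 225.6 CPM against 245.7 to 247.5. Ddit4 was at 68.01 CPM in DR mouse 1 against 84.65 to 86.64 in the others. Igfbp2 was at 4.053 CPM in AL mouse 4 against 3.662 to 3.67, and Foxo4 at 39.45 CPM in KD mouse 2 against 34.26 to 34.91. Prkaa1 was at 40.37 CPM in AL mouse 3 against 38.32 to 38.59, and Prkab1 at 11.88 CPM in KD mouse 4 against 13.86 to 13.99.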

How the results depend on the processing

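No paired analysis was possible because the labels number no replicates within a diet, and the mouse numbers used here are names that pair nothing. Of the values recomputed for single genes with all mice, 330 kept direction and call, 10 gained a call and 8 lost one.

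DESeq2 called 1012 genes of the whole table on DR against AL (5.31%) and 10 on KD against AL (0.0525%). Among these were 3 further pathway genes and 2 ATF4 targets on DR against AL and 1 FoxO target on KD against AL. Without the low-count filter edgeR called 1258, 118 and 1503 genes on DR against AL, KD against AL and KD against DR. These were 3.57%, 0.335% and 4.24% of the 35284, 35236 and 35453 genes then tested. Without that filter edgeR called 5 of the 40 genes, 4 further pathway genes and 6 FoxO targets on DR against AL, beside 3.57% of all genes. On KD against AL it called 1 of the 40 genes, 1 further pathway gene, 5 FoxO targets and 1 ATF4 target, beside 0.335%. The fit of all 12 libraries called 1 further pathway gene on DR against AL, beside 4.41% of all genes. Scaling by library size called 1 ATF4 target on KD against DR, beside 5.2% of all genes. The cause was not tested.

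Leaving out 1 mouse gave 235 (without DR mouse 3) to 712 calls on DR against AL, 0 to 6 on KD against AL and 467 (without KD mouse 3) to 946 on KD against DR. For the 40 genes the ranges were 1 to 2, 0 to 0 and 3 to 6 (3 without DR mouse 3 or KD mouse 3). For further pathway genes they were 0 to 3, 0 to 0 and 4 to 9, for FoxO targets 1 to 4, 0 to 1 and 7 to 10, and for ATF4 targets 0 to 2, 0 to 0 and 0 to 3. The log2 fold change of Foxo3 on KD against AL then ranged from -0.10 to 0.02, the positive value without AL mouse 3.

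With mean log2 CPM of markers in place of the sum, the exact permutation p on DR against AL was 0.0857 for Purkinje cells, 0.0571 for oligodendrocyte precursors, 0.229 for microglia and 0.286 for endothelium. It was 0.0857 for mural cells and 0.0857 for erythrocytes on KD against AL. On KD against DR it was 0.0571 for Purkinje cells and 0.0286 for oligodendrocytes and microglia. The direction turned for choroid plexus (0.771 on DR against AL, 0.314 on KD against AL), meningeal fibroblasts (0.686 on DR against AL, 0.943 on KD against DR), erythrocytes (1 on KD against DR) and cerebellar nuclei and brain stem (0.914 on KD against AL).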
